A study of Sus scrofa with 5 samples.

Results

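Steroid synthesis was followed through 7 genes, *CYP17A1*, *CYP11A1*, *STAR*, *CYP19A1*, *FDX1*, *FDXR* and *NR5A2*, listed as genes known for steroid synthesis in pig trophoblast. They are 7 of the 30029 genes in the count tables, and all 7 were found there and in the table of bulk values. The list was made with earlier results of these data known. The study made pig blastoids, which are blastocyst-like structures assembled from porcine embryonic stem cells (pESCs). The paper reports that its pESCs were derived from parthenogenetic blastocysts. Blastoid cells were profiled in 2 libraries of single cells. Both libraries hold day 6 blastoids grown in iBlastoid medium, picked by hand for an inner compartment, an outer layer and a cavity, so they repeat a single condition. Bulk RNA of pESCs kept in 4FIXY medium was profiled in 3 libraries, whose columns carry the names IVFP25, PA_4P7 and PAP25. The labels give the pESC libraries the cell type pESC, and the column names differ among themselves. The 3 are therefore taken as unlike samples of a single group, and their spread is not taken as that of repeats of a line. Whether they are 3 separate lines cannot be told from the column names. Nothing in the labels says that the 2 blastoid libraries came from separate cultures, so p-values measure the spread between these libraries, which may be technical.

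Cells were barcodes with at least 11223 unique molecular identifiers (UMIs, 1 per captured transcript) in library 1 or 9805 in library 2, which gave 7369 and 8175 cells with medians of 29728 and 27588 UMIs. The libraries shared 9 cell barcodes. A cell was positive for *GABRP*, *TAC3*, *TP63*, *ISG15* or *POU5F1* when it held at least 3 UMIs of that gene and at least 2 times the level in empty droplets, and none of the 7 genes set a gate. The GABRP+TAC3+ class held 282 and 250 cells, the GABRP+TAC3- class 474 and 473, the TP63 class 1057 and 1054, the ISG15 class 263 and 300, and the POU5F1 class 835 and 969. Cells in these classes passed only one of *GABRP*, *TP63*, *ISG15* and *POU5F1*, while *TAC3* split the GABRP cells and was not used to leave cells out of the TP63, ISG15 and POU5F1 classes. No gate was passed by 3402 and 4149 cells. A cell that failed a gate may still hold UMIs of its gene. As means of the libraries, a *GABRP* UMI was found in 75.4% of TP63 and 55.3% of POU5F1 cells, and a *TAC3* UMI in 33.8% of GABRP+TAC3- cells. Median UMIs per cell were 25252 and 22952 in GABRP+TAC3+ cells and 38265 and 34321 in POU5F1 cells. Levels are given as CPM, the UMIs of a gene per 1000000 UMIs of the class, for library 1 and then library 2. Empty droplets, barcodes with 10 to 100 UMIs, give the level within free RNA itself. The share of free RNA among the UMIs of a cell was not estimated, so a class below that level may still express the gene.

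Steroid hormones are made from cholesterol. STAR carries cholesterol to the inner mitochondrial membrane, where CYP11A1 cuts its side chain with electrons passed on from FDXR through FDX1, and HSD3B1 turns the product into progesterone. CYP17A1 makes androgens from these steroids, CYP19A1 turns androgens into oestrogens, and the nuclear receptors NR5A1 and NR5A2 regulate several of these genes. The elongating pig conceptus is known for releasing oestrogen, the signal by which the mother recognises pregnancy.

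In Sscrofa11.1, *CYP17A1* lies at chr14:113805616-113820445 on the minus strand with 9 exons, and *CYP11A1* lies at chr7:59172829-59188479 on the plus strand with 9 exons in its longest transcript. *STAR* lies at chr15:48377597-48385398, *FDX1* at chr9:38376147-38399026, *FDXR* at chr12:6372224-6382769 and *NR5A2* at chr10:22727865-22866905, all on the plus strand. *CYP19A1* at chr1:120596235-120627806 has the copies *CYP19A3* at chr1:120476890-120556103 and *CYP19A2* at chr1:120652172-120695899 on both sides of it. Reads that fall on sequence shared by these copies may have been split or dropped in counting, so their levels are uncertain.

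The 250 bases before the annotated start are shown for *CYP17A1*, *CYP11A1* and *FDXR*, whose levels were higher in GABRP cells in both libraries, and for *STAR*, whose levels were not. They were read 5′ to 3′ on the strand of each gene from the RefSeq genome, at chr14:113820446-113820695 (minus strand), chr7:59172579-59172828, chr12:6371974-6372223 and chr15:48377347-48377596 (plus strand).
CYP17A1: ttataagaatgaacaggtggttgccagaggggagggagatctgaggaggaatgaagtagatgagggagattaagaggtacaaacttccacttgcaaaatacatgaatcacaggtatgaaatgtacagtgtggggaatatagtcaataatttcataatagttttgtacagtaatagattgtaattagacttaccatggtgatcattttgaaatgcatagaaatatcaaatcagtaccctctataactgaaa
CYP11A1: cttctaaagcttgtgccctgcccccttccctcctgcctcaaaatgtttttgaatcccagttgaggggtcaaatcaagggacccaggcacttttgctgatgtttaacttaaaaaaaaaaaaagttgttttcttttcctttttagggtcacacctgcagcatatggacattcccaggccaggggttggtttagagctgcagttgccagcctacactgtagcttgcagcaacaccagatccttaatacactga
FDXR: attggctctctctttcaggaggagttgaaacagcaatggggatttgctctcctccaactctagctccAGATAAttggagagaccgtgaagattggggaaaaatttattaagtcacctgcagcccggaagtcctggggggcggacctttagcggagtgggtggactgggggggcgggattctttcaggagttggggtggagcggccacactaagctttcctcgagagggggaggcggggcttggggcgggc
STAR: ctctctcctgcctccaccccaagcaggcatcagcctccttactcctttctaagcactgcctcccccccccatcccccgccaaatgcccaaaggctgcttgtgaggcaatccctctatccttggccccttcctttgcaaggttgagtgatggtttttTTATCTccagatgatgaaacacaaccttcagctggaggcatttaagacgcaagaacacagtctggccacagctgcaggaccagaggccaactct
Capitals mark a match on either strand to one of 4 sets of letters. They were AAGGTCA for the NR5A receptors, which bind as single molecules. The TATA box was searched as TATAAA. A site of GATA factors was searched as AGATAA. An AP-2 site was searched as GCCNNNGGC. The GATA letters were found before *FDXR* and, on the opposite strand, before *STAR*, and the windows of *CYP17A1* and *CYP11A1* held none of the 4 sets. Over 19559 promoters of protein-coding genes of the same length, 3.21% held the NR5A letters, 9.77% the TATA letters, 8.08% the GATA letters and 22% the AP-2 letters. A match is only a match of letters, and the annotated start may not be the start used in these cells.

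*CYP17A1* had the widest range of the 7 genes over the gated classes, and it followed *GABRP*. Its level was 586 and 578 CPM in GABRP+TAC3+ cells and 511 and 451 CPM in GABRP+TAC3- cells. TP63 cells held 125 and 101 CPM, ISG15 cells 46.9 and 54.3 CPM and POU5F1 cells 36.5 and 21.0 CPM. Cells with no gate held 46.0 and 39.2 CPM and cells with several gates 441 and 374 CPM. With these gates both libraries put these 7 classes in the same order, with the GABRP classes on top. With gates at 4 times the empty droplets the GABRP classes were still highest, at 660 and 724 CPM (GABRP+TAC3+) and 713 and 634 CPM (GABRP+TAC3-), but their order turned in library 1, and TP63 cells at 182 and 156 CPM were slightly above the empty droplets. ISG15 cells then held 109 and 73.3 CPM and ungated cells 83.0 and 58.0 CPM, still below them. Empty droplets held 179 and 152 CPM. The levels of the TP63, ISG15, POU5F1 and ungated cells were all below this, and those of the GABRP classes and of cells with several gates were above it. A level below that of empty droplets does not show that a class lacks the transcript. Of TP63 cells, 25.8% and 20.5% held at least 5 *CYP17A1* UMIs, and cells with no *GABRP* UMI were at 31.0 and 27.4 CPM. The GABRP+TAC3+ level was 24.4-fold that of POU5F1 cells (log2 fold change 4.61, SE 0.20, adjusted p = 3.7e-11), 5.98-fold that of TP63 cells (2.58, SE 0.18, adjusted p = 2.0e-08) and 13.1-fold that of ISG15 cells (3.71, SE 0.19, adjusted p = 1.3e-09) by edgeR's quasi-likelihood test over 17971 genes. Against GABRP+TAC3- cells the log2 fold change was 0.34 (SE 0.17, edgeR adjusted p = 0.26), although the classes did not overlap.

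At least 1 UMI of *CYP17A1* was found in 89.0% of GABRP+TAC3+ cells of library 1 (95% exact binomial interval 84.8 to 92.4) and 87.2% of library 2 (82.4 to 91.1). The shares in POU5F1 cells, the lowest of the gated classes, were 35.2% and 28.2%. After every cell was thinned to 9805 UMIs the shares were 80.9% and 78.8% in GABRP+TAC3+ cells against 15.9% and 11.9% in POU5F1 cells. Intervals cover counting error only. The median GABRP+TAC3+ cell held 12 *CYP17A1* UMIs in library 1 and 10 in library 2, and single cells reached 111 and 76. The tenth of cells with the most *CYP17A1* held 35.7% and 35.2% of the UMIs of the class. *CYP17A1* was thus found in most GABRP+TAC3+ cells of both libraries. This was not particular to that class. As means of the 2 libraries, 80.9% of GABRP+TAC3- cells and 58.6% of TP63 cells held a UMI, or 71.6% and 38.6% after thinning.

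*CYP11A1*, which encodes the side-chain cleavage enzyme, was highest in the GABRP+TAC3- class among the 5 gated classes. It measured 22.2 and 45.2 CPM in GABRP+TAC3- cells and 10.6 and 27.1 CPM in GABRP+TAC3+ cells. TP63 cells held 5.64 and 6.91 CPM, ISG15 cells 3.57 and 8.25 CPM and POU5F1 cells 5.39 and 3.46 CPM, against 4.88 and 8.96 CPM in empty droplets. Library 2 was more than 2 times as high as library 1 in both GABRP classes, while both libraries put the GABRP classes above the others and above the empty droplets. The GABRP+TAC3+ level was higher than in POU5F1 cells (log2 fold change 2.32, SE 0.47, adjusted p = 5.4e-04), TP63 cells (1.76, SE 0.45, adjusted p = 0.00607) and ISG15 cells (1.80, SE 0.53, adjusted p = 0.0137) by edgeR. The log2 fold change over POU5F1 cells was 1.25 in library 1 alone and 3.19 in library 2 alone, so library 2 set much of its size. GABRP+TAC3+ and GABRP+TAC3- cells overlapped across libraries (-0.81, SE 0.42, edgeR adjusted p = 0.293), with the GABRP+TAC3- class higher within each library. A comparison added after these values were seen put GABRP+TAC3- cells 8.76-fold above POU5F1 cells (log2 fold change 3.13, SE 0.42, edgeR adjusted p = 1.6e-05). Its size also differed between libraries, with 22.2 against 5.39 CPM in library 1 and 45.2 against 3.46 CPM in library 2.

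*CYP11A1* was detected in a minority of cells of each class given here, and at these levels a cell without a UMI may still carry the transcript. At least 1 UMI was found in 18.8% and 30.0% of GABRP+TAC3+ cells, 28.7% and 38.1% of GABRP+TAC3- cells and 9.22% and 6.81% of POU5F1 cells. Thinned to 9805 UMIs the shares were 8.51% and 17.2%, 15.2% and 22.8%, and 3.11% and 2.58%. These 2 GABRP classes kept their order and stayed above POU5F1 cells. The tenth of GABRP+TAC3- cells with the most UMIs held 69.8% and 66.2% of them, and single cells reached 15 and 41 UMIs. In a second random draw of the thinning, made for all members at once, 55 of 65 GABRP+TAC3- cells with *CYP11A1* in library 1 also held *CYP17A1*, and in library 2 76 of 93 did. Among cells of the class without a *CYP11A1* UMI the shares with *CYP17A1* were 70.4% and 66.8%. All of *CYP17A1*, *CYP11A1*, *FDX1* and *FDXR* were detected together in 4.22% and 5.71% of thinned GABRP+TAC3- cells, 1.77% and 4.00% of GABRP+TAC3+ cells and 0.599% and 0.826% of POU5F1 cells.

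**Figure D1:**
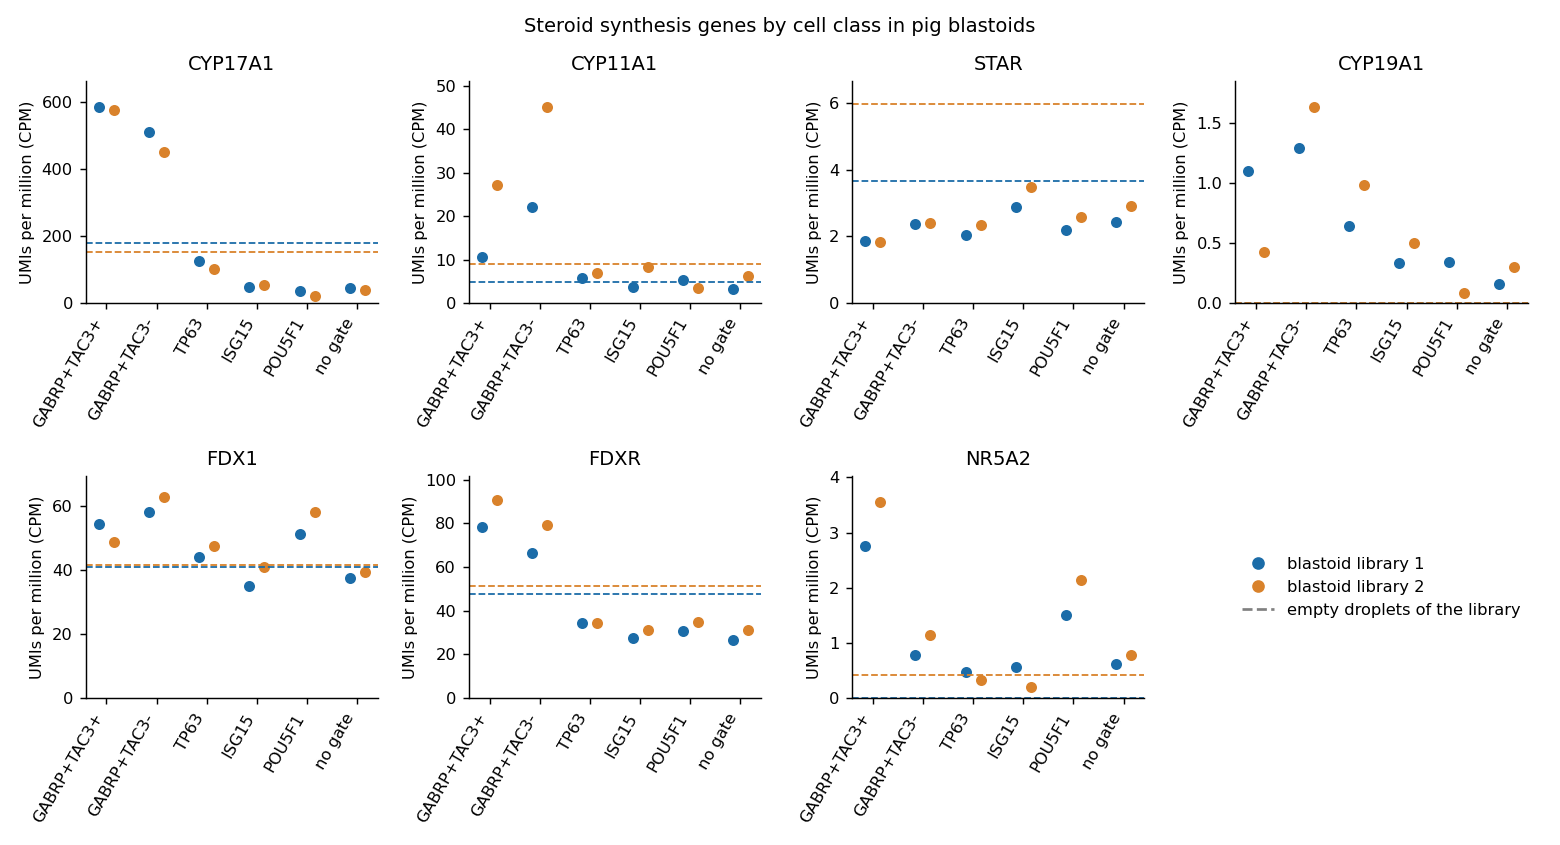
Level of each of the 7 genes, in UMIs per 1000000 (CPM, linear axes from 0), in 5 gated classes and in cells with no gate. Each point is 1 library and the dashed lines are the empty droplets of that library. *CYP17A1* reached 586 and 578 CPM in GABRP+TAC3+ cells and stayed below its empty-droplet lines in the 4 classes that failed the *GABRP* gate. Every *STAR* point lay below its own library's line.

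The 2 genes of the electron chain differed. *FDXR*, the reductase, measured 78.3 and 90.9 CPM in GABRP+TAC3+ cells and 66.7 and 79.5 CPM in GABRP+TAC3- cells. It measured 34.6 and 34.4 CPM in TP63 cells, 27.4 and 31.0 CPM in ISG15 cells and 30.8 and 34.7 CPM in POU5F1 cells, all below the 47.6 and 51.2 CPM of empty droplets. Every sum of the GABRP classes was above every sum of the other 3 gated classes. *FDXR* was higher in GABRP+TAC3+ cells than in POU5F1 cells (log2 fold change 1.63, SE 0.12, adjusted p = 1.2e-08), TP63 cells (1.50, SE 0.12, adjusted p = 7.2e-08) and ISG15 cells (1.72, SE 0.13, adjusted p = 5.9e-08) by edgeR. Against GABRP+TAC3- cells the log2 fold change of 0.27 (SE 0.11) had an edgeR adjusted p of 0.181, and with the library as a block an adjusted p of 0.0106.

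*FDX1*, the ferredoxin that FDXR charges, varied little. Levels were 54.3 and 48.8 CPM in GABRP+TAC3+ cells, 58.0 and 62.7 CPM in GABRP+TAC3- cells, 43.9 and 47.4 CPM in TP63 cells, 35.1 and 40.9 CPM in ISG15 cells and 51.1 and 58.1 CPM in POU5F1 cells, beside 40.9 and 41.4 CPM in empty droplets. GABRP+TAC3+ and POU5F1 cells overlapped (log2 fold change 0.18, SE 0.10, edgeR adjusted p = 0.135). That value passed the threshold under the library block (0.19, edgeR adjusted p = 0.0339), with gates at 1 times the empty droplets (0.30, adjusted p = 0.0092) and with doublets removed (0.28, adjusted p = 0.0166), and was -0.08 without TMM scaling. *FDX1* was higher than in TP63 cells (0.39, SE 0.10, adjusted p = 0.00622) and ISG15 cells (0.63, SE 0.11, adjusted p = 3.0e-04) by edgeR, and the first of these was lost without TMM scaling (adjusted p = 0.134).

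*STAR*, the cholesterol carrier, was near the bottom of detection in every class. It held 1.88 and 1.84 CPM in GABRP+TAC3+ cells, from 17 and 13 UMIs, and between 1.84 and 3.48 CPM over the 5 gated classes. The GABRP+TAC3+ sums were the lowest of the gated classes in both libraries, and each class was below the empty droplets of its library, at 3.66 and 5.97 CPM. The edgeR log2 fold change of GABRP+TAC3+ cells was -0.10 against POU5F1 cells (SE 0.26, adjusted p = 0.792), -0.03 against TP63 cells (SE 0.26, adjusted p = 0.954), -0.59 against ISG15 cells (SE 0.28, adjusted p = 0.132) and -0.30 against GABRP+TAC3- cells (SE 0.27, adjusted p = 0.635). No difference of *STAR* passed the threshold at this depth, except lower levels than in ISG15 cells when TMM scaling was left out (-0.78, adjusted p = 0.033). How much of its level is free RNA was not estimated.

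*CYP19A1*, 1 of the aromatase genes, was also rare. GABRP+TAC3+ cells held 10 and 3 UMIs (1.10 and 0.425 CPM), GABRP+TAC3- cells 20 and 23 (1.29 and 1.63 CPM), TP63 cells 23 and 36 (0.646 and 0.983 CPM), ISG15 cells 3 and 5 (0.334 and 0.497 CPM) and POU5F1 cells 12 and 3 (0.342 and 0.0845 CPM). Empty droplets held 0 UMIs, which allows up to 1.83 and 1.28 CPM. Of these sums only that of GABRP+TAC3- cells in library 2 was above the limit of its library. The log2 fold change of GABRP+TAC3+ over POU5F1 cells, 2.16 (SE 0.75, edgeR adjusted p = 0.0247), rests on these few UMIs and was lost with doublets removed (adjusted p = 0.0872), with the gates at the empty-droplet level (0.071) and with overlapping gates (0.0544). GABRP+TAC3+ cells overlapped TP63 cells (0.18, SE 0.62, edgeR adjusted p = 0.851) and ISG15 cells (1.11, SE 0.82, adjusted p = 0.329), and its value against GABRP+TAC3- cells was -0.80 (SE 0.62, adjusted p = 0.521). In the comparison added later, after these values were seen, GABRP+TAC3- cells held 7.77-fold the POU5F1 level (log2 fold change 2.96, SE 0.58, edgeR adjusted p = 6.0e-04). This fold also rests on few UMIs and differed between libraries, with 1.29 against 0.342 CPM in library 1 and 1.63 against 0.0845 CPM in library 2. The copies were rarer still, with 7 and 3 UMIs of *CYP19A2* and 7 and 22 of *CYP19A3* over all cells, and neither had enough counts for the test. *CYP19A3* was at 0 CPM in GABRP+TAC3+ cells of both libraries and at 0.258 and 0.142 CPM in GABRP+TAC3- cells.

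*NR5A2*, a nuclear receptor known as a regulator of steroid synthesis genes, was the only member of the 7 called between the GABRP classes in the main fit. That fit used gates at 2 times the empty droplets and no library block, and other members were called there with the block or with gates at 1 times. It held 25 UMIs in each library in GABRP+TAC3+ cells (2.76 and 3.55 CPM), against 12 and 16 in GABRP+TAC3- cells (0.774 and 1.14 CPM) and 53 and 76 in POU5F1 cells (1.51 and 2.14 CPM). TP63 cells held 0.477 and 0.328 CPM and ISG15 cells 0.557 and 0.199 CPM. With these gates the GABRP+TAC3+ sums were the highest of the 5 gated classes and overlapped with none of them, and POU5F1 cells came next. With gates at 4 times the empty droplets they overlapped POU5F1 cells (3.36 and 2.76 against 2.06 and 2.83 CPM). The 39 and 23 cells positive for both *GABRP* and *POU5F1* held more, at 3.90 and 6.20 CPM. Empty droplets held 0 UMIs in library 1, which allows up to 1.83 CPM, and 1 UMI in library 2 (0.427 CPM), a count too small to set the level of free RNA. By edgeR *NR5A2* was higher in GABRP+TAC3+ cells than in TP63 cells (log2 fold change 3.16, SE 0.43, adjusted p = 3.5e-05), ISG15 cells (3.26, SE 0.56, adjusted p = 2.9e-04), GABRP+TAC3- cells (1.78, SE 0.44, adjusted p = 0.0186) and POU5F1 cells (1.04, SE 0.37, adjusted p = 0.0268). The call against POU5F1 cells was lost without TMM scaling (adjusted p = 0.0847), with overlapping gates (0.122) and with gates at 4 times the empty droplets (0.306), and the call against GABRP+TAC3- cells was lost at the last of these (0.171). A UMI was found in 6.74% and 6.40% of GABRP+TAC3+ cells and 4.67% and 4.75% of POU5F1 cells, or 2.84% and 1.60% against 1.44% and 1.86% after thinning, so the shares give no order. Its relative *NR5A1* stayed at 0 to 0.456 CPM in all 5 classes.

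*HSD3B1*, which turns pregnenolone into progesterone, had 11 and 14 UMIs over all cells of the 2 libraries. No gated class held more than 4, and it had too few counts for the test.

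Of the 7 genes, 5 were called higher in GABRP+TAC3+ than in POU5F1 cells at an adjusted p below 0.05 and 0 lower, where 28.0% of all 17971 genes tested were called higher and 26.6% lower. The numbers were 5 and 0 against TP63 cells, with 19.3% and 17.0% of all genes, and 5 and 0 against ISG15 cells, with 19.2% and 17.1%. Against GABRP+TAC3- cells 1 was called higher and 0 lower, with 5.01% and 3.35% of all genes. With the library as a replicate block these counts were 6 and 0 against POU5F1 cells, where *FDX1* was added, and 2 and 0 against GABRP+TAC3- cells, where *FDXR* was added and the genes called over all went from 1502 to 2316. The counts against TP63 and ISG15 cells stayed at 5 and 0. GABRP+TAC3- over POU5F1 cells, without the block, also gave 5 higher and 0 lower, beside 26.8% and 24.7%. The median log2 fold change of the 7 genes was 1.63 against POU5F1, 1.50 against TP63, 1.72 against ISG15 and -0.16 against GABRP+TAC3- cells, where the medians of all genes lay between -0.02 and 0.00. All 7 had enough counts to be tested, and the comparisons share the GABRP+TAC3+ or POU5F1 sums. Members and gates were chosen with earlier results of these data known, so the counts of members describe a chosen set.

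**Figure D2:**
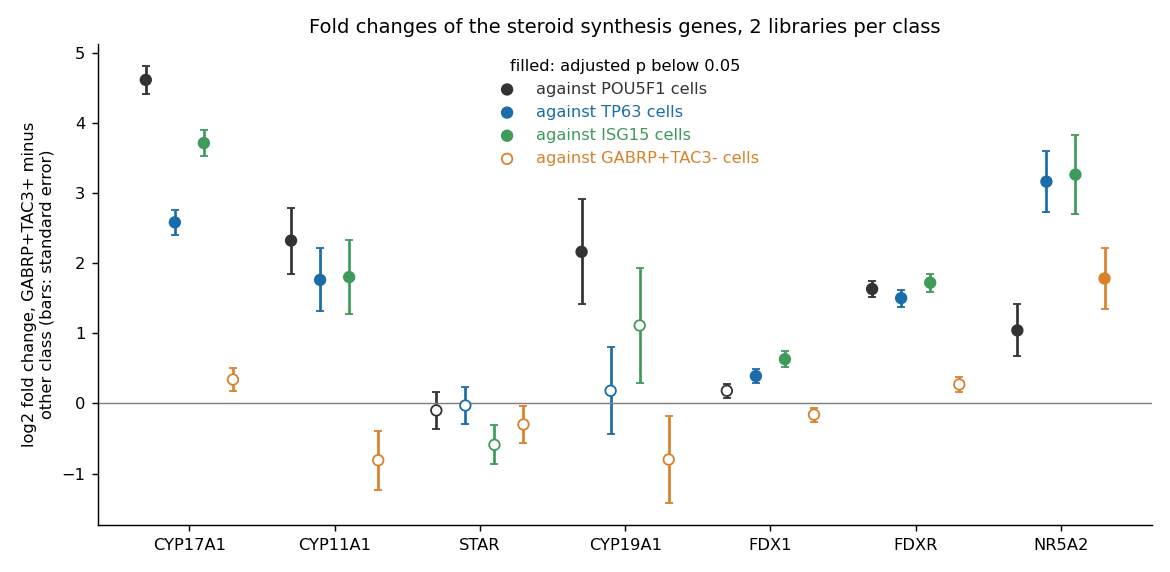
Log2 fold change of each of the 7 genes in GABRP+TAC3+ cells against 4 other classes from edgeR, with standard errors from 2 libraries per class. Filled points have an adjusted p below 0.05. *CYP17A1* spanned 4.61 against POU5F1 cells to 0.34 against GABRP+TAC3- cells, the 4 *STAR* points are open, and *NR5A2* is the only gene filled in all 4.

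When cells were ordered by *GABRP* alone, *CYP17A1* was higher at every step. It went from 31.0 CPM in cells with no *GABRP* UMI through 142.6 CPM at 100 to 300 CPM of *GABRP* to 852 CPM above 1200 in library 1, and from 27.4 through 105 to 797 CPM in library 2. *FDXR* went from 26.3 to 92.8 CPM and from 31.4 to 110.5 CPM, and *CYP11A1* from 2.82 to 17.7 CPM and from 3.79 to 37.4 CPM. *NR5A2* stayed at or below 1.41 CPM up to 1200 CPM of *GABRP* and reached 3.96 and 2.30 CPM above it. *STAR* ended lower than it began, at 1.25 and 1.61 CPM after 2.32 and 2.79 CPM. These are descriptions of cells that share a library, and median UMIs per cell fell from 35230 to 25250 between the lowest and the highest bins with *GABRP* in library 1.

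**Figure D3:**
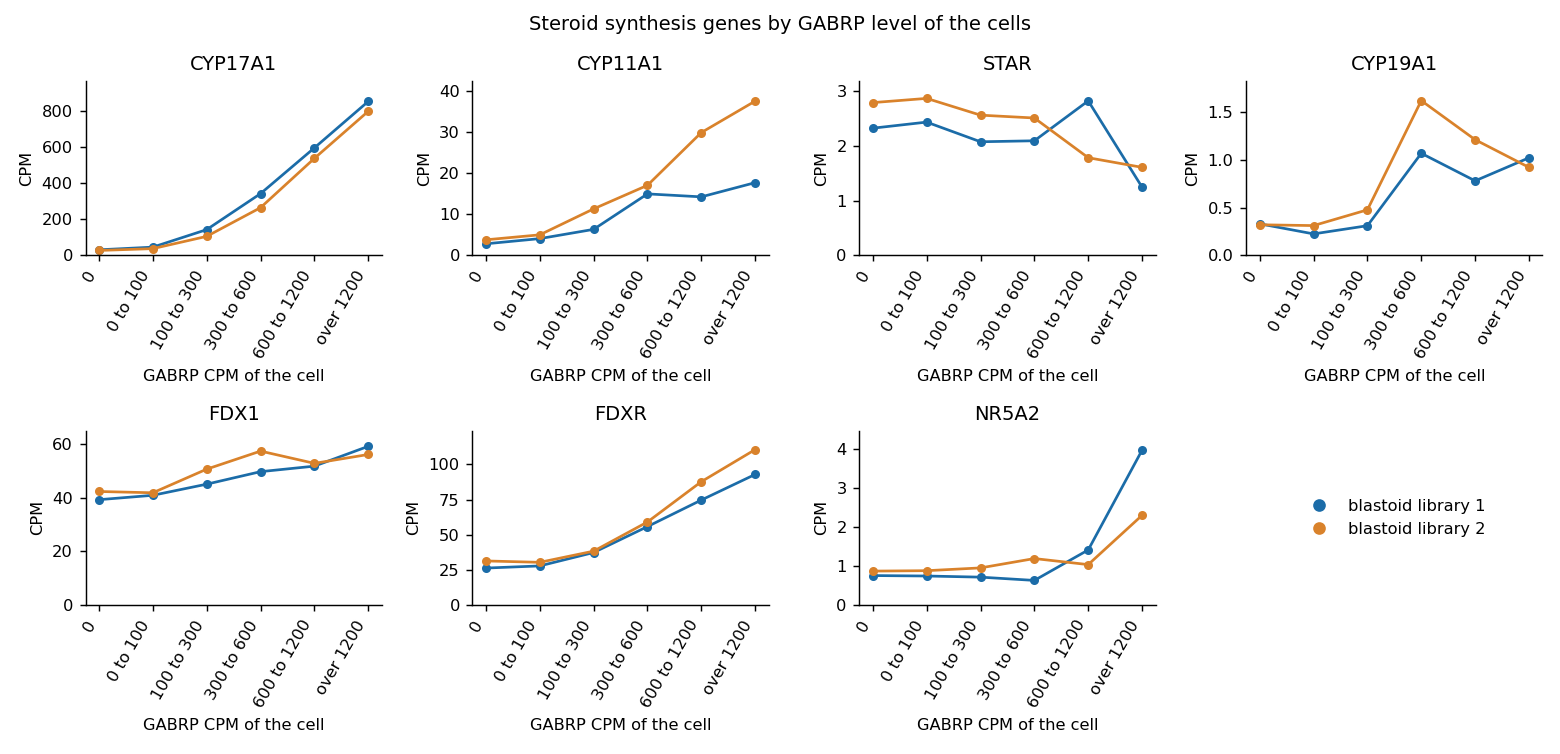
Level of each of the 7 genes (CPM, linear axes from 0) in cells grouped by their own *GABRP* level, 1 line for each library. *CYP17A1* climbed to 852 and 797 CPM and *FDXR* to 92.8 and 110.5 CPM in the highest group, while *STAR* remained below 3 CPM throughout.

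Cells that passed more than 1 gate showed the same dependence. Cells positive for both *GABRP* and *TP63* (672 and 618) held 528 and 455 CPM of *CYP17A1* and 68.2 and 78.0 CPM of *FDXR*, close to the GABRP classes, where TP63 cells alone held 125 and 101 CPM of *CYP17A1*. Their *CYP11A1* level of 7.70 and 14.2 CPM lay between those of the TP63 and GABRP+TAC3+ classes. Cells positive for *GABRP* and *ISG15* (69 and 71) held 553.5 and 499 CPM of *CYP17A1*. Cells positive for *GABRP* and *POU5F1* (39 and 23) held 299 and 202 CPM of *CYP17A1* and 106.5 and 114 CPM of *FDX1*, the highest *FDX1* levels of any combination with at least 20 cells in each library. Their *CYP11A1* level was 70.8 CPM in library 1, above every gated class, and 19.6 CPM in library 2. The 48 and 24 cells with *TAC3* and no other gate held 80.2 and 114 CPM of *CYP17A1*, below the empty droplets. That value was not stable, at 81.1 and 46.7 CPM with doublets removed and 177.5 and 206 CPM with gates at 4 times the empty droplets, the last of these above its library's empty level. With the likely doublets removed, cells with several gates held 467 and 404 CPM of *CYP17A1*, where they had held 441 and 374 CPM.

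The genes whose levels followed *CYP17A1* most closely over the 16 class-by-library sums were *PPP1CB* (Pearson r of log2 CPM 0.993), *PTK2B* (0.987), *WWC3* (0.986) and *ANXA8* (0.984), followed by *GALC*, *ITGB6*, *TIMP1*, *EPAS1*, LOC100512977 and *VTCN1* (0.978 or more), out of 9411 genes compared. The 16 sums come from 2 libraries, so the coefficients are descriptions. Among the members *FDXR* was closest to *CYP17A1* (r 0.902) and *CYP11A1* next (0.744), while *NR5A2* (0.358) and *STAR* (-0.397) were far from it. *TIMP1*, an inhibitor of matrix proteases, measured 1222 and 1270 CPM in GABRP+TAC3+ cells and 59.3 and 45.0 CPM in POU5F1 cells. *ITGB6*, an epithelial integrin subunit, measured 75.4 and 64.0 CPM against 2.65 and 1.75 CPM. *VTCN1*, an immune checkpoint ligand known from trophoblast and amnion, measured 78.0 and 79.6 CPM against 1.85 and 1.13 CPM.

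The wider pathway moved both ways. The counts against POU5F1 cells stand beside 28.0% of all genes called higher and 26.6% called lower, those against TP63 cells beside 19.3% and 17.0%, against ISG15 cells beside 19.2% and 17.1%, and against GABRP+TAC3- cells beside 5.01% and 3.35%. This holds for each of the 6 lists. Of 41 listed steroid enzymes 32 were in the files and 21 had enough counts, and 11 (52.4%) were higher and 6 (28.6%) lower in GABRP+TAC3+ than in POU5F1 cells, with a median log2 fold change of 0.91. *SULT1E1*, the oestrogen sulphotransferase, held 61.9 and 82.3 CPM in GABRP+TAC3+ cells, 28.0 and 37.1 CPM in GABRP+TAC3- cells and 0.998 and 0.732 CPM in POU5F1 cells, a log2 fold change of 6.63 over the last (SE 0.21, edgeR adjusted p = 2.1e-12) and of 1.21 over GABRP+TAC3- cells (SE 0.15, adjusted p = 1.0e-04). It was well above its empty droplets, at 7.93 and 5.97 CPM. *HSD11B1*, which regenerates cortisol, held 8.28 and 8.51 CPM against 1.37 and 1.27 CPM in POU5F1 cells (log2 fold change 2.93, SE 0.22, edgeR adjusted p = 1.8e-08). *HSD17B1*, which activates oestrone, was called at 4.05 (SE 1.46, edgeR adjusted p = 0.0294) on levels of only 0.442 and 0 CPM. The genes called lower included *SRD5A1*, a steroid 5-alpha reductase (log2 fold change -0.81), and *SULT2B1*, a cholesterol sulphotransferase (-1.11). Against TP63 cells 6 enzymes were higher and 2 lower, against ISG15 cells 9 and 3, and against GABRP+TAC3- cells 3 and 0.

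Of 6 electron donors tested 3 (50%) were higher than in POU5F1 cells and 0 lower (median log2 fold change 0.55). These were *FDXR*, *H6PD*, which makes NADPH inside the endoplasmic reticulum (1.35, SE 0.12, edgeR adjusted p = 1.5e-07), and *CYB5A*, the cytochrome b5 that assists CYP17A1 (0.92, SE 0.06, adjusted p = 8.7e-09). *CYB5A* held 230.5 and 239 CPM in GABRP+TAC3+ cells and 157 and 141 CPM in POU5F1 cells. Against TP63 cells 3 of the 6 were higher, against ISG15 cells 4 and against GABRP+TAC3- cells 0.

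Genes that supply cholesterol to mitochondria went both ways, with 4 of 19 (21.1%) higher and 6 (31.6%) lower against POU5F1 cells (median 0.05), close to the shares of all genes. *ABCA1*, which exports cholesterol, was higher (2.51, SE 0.09, edgeR adjusted p = 5.6e-12), as was the oxysterol-binding gene *OSBPL2* (0.91, SE 0.15, adjusted p = 1.2e-04). *SOAT1*, which esterifies cholesterol, was lower (-1.43, SE 0.10, edgeR adjusted p = 8.0e-09), as was the lipoprotein receptor gene *SCARB1* (-0.99, SE 0.19, adjusted p = 4.4e-04). Against TP63, ISG15 and GABRP+TAC3- cells the counts higher and lower were 6 and 3, 6 and 4, and 2 and 0.

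Of 26 cholesterol synthesis genes 5 (19.2%) were higher and 7 (26.9%) lower than in POU5F1 cells (median -0.04), the first below the share of all genes and the second close to it. *HSD17B7* (-0.98, SE 0.11, edgeR adjusted p = 1.8e-06), *LBR* (-0.47, SE 0.10, adjusted p = 8.4e-04) and *FDPS* (-0.44, SE 0.07, adjusted p = 1.3e-04) were lower and *TM7SF2* was higher (0.70, SE 0.12, adjusted p = 1.7e-04). The summed level of the list was 1465 and 1557 CPM in GABRP+TAC3+ cells and 1991 and 1891 CPM in POU5F1 cells. Against TP63, ISG15 and GABRP+TAC3- cells the counts higher and lower were 8 and 2, 4 and 8, and 0 and 0.

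Of 25 regulators of steroid synthesis tested, *NR5A2* among them, 10 (40%) were higher and 4 (16%) lower than in POU5F1 cells (median 0.17). *TFAP2A*, a transcription factor of trophoblast and surface ectoderm, held 339 and 346 CPM in GABRP+TAC3+ cells against 179.5 and 130 CPM (log2 fold change 1.42, SE 0.11, edgeR adjusted p = 3.1e-08). *CEBPB* was higher (2.53, SE 0.50, adjusted p = 5.1e-04 by edgeR) at 2.10 and 1.28 CPM, beside 0.610 and 1.71 CPM in empty droplets. *NR0B1*, a repressor of NR5A receptors, was higher (3.12, SE 0.81, edgeR adjusted p = 0.00395) at 0.773 and 0.709 CPM against 0.171 and 0.0282 CPM. Its empty droplets were at 1.83 and 0.427 CPM, so it was below them in library 1. TP63 cells held 1.91 and 2.13 CPM. *PRKAR2B*, a regulatory subunit of protein kinase A, was lower (-1.49, SE 0.20, edgeR adjusted p = 9.9e-06). The counts higher and lower were 5 and 4 against TP63 cells, 6 and 4 against ISG15 cells and 2 and 1 against GABRP+TAC3- cells.

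Of 18 steroid receptors and response genes 6 (33.3%) were higher and 7 (38.9%) lower than in POU5F1 cells (median -0.30), both somewhat above the shares of all genes. *NR3C1*, the glucocorticoid receptor, held 75.6 and 70.6 CPM in GABRP+TAC3+ cells, 36.1 and 39.0 CPM in GABRP+TAC3- cells and 20.0 and 16.3 CPM in POU5F1 cells. It was higher than in POU5F1 cells (2.28, SE 0.10, edgeR adjusted p = 4.3e-11) and than in GABRP+TAC3- cells (1.03, SE 0.10, adjusted p = 1.2e-05). *FKBP5*, a known glucocorticoid target, was lower (-1.72, SE 0.10, edgeR adjusted p = 1.3e-09), as was the membrane progestin receptor gene *PAQR7* (-2.37, SE 0.45, adjusted p = 3.7e-04). *PGRMC2*, a progesterone receptor membrane component, was higher (1.46, SE 0.07, edgeR adjusted p = 1.4e-10). Against TP63, ISG15 and GABRP+TAC3- cells the counts higher and lower were 5 and 7, 3 and 5, and 1 and 3.

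**Figure D4:**
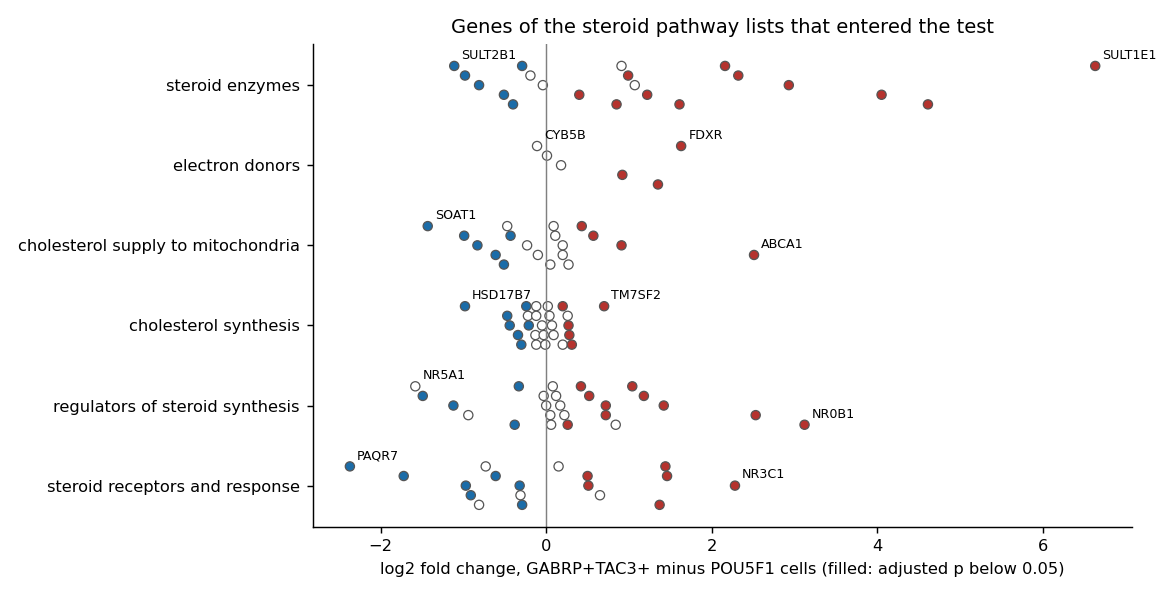
Log2 fold change in GABRP+TAC3+ over POU5F1 cells of each gene of the 6 pathway lists that entered the test, 1 point for each gene, spread vertically only for legibility. Filled points have an adjusted p below 0.05, red for higher and blue for lower, and the lowest and highest gene of each list is named. Steroid enzymes reached 6.63 (*SULT1E1*), whereas all cholesterol synthesis genes lay between -0.98 and 0.70.

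The name trophoblast was checked against markers. Of 18 trophoblast markers tested 11 were higher in GABRP+TAC3+ than in POU5F1 cells and 3 lower, and the 21 in the files summed to 21220 and 21580 CPM against 7580 and 6650 CPM, of which the keratin genes *KRT8* (9607 and 9582 CPM) and *KRT18* (9081 and 9397 CPM) made up most. Besides *KRT8* and *KRT18*, the markers called higher were *GATA3* (log2 fold change 1.14), *ELF3* (2.56), *ELF5* (2.55), *TEAD4* (0.60) and *HAND1* (4.73). *KRT7* (3.64), *SFN* (2.54), *PTGS2* (2.96) and *DAB2* (2.08) made up the rest. The 3 lower were *GATA2*, *TFAP2C* and *EOMES*. *CDX2* stayed at 1.10 and 0.709 CPM, and *IL1B2* and *IL1B* were at 0 in every gated class. All 11 amnion markers tested besides *GABRP*, among them *ISL1*, *TNC* and *HAND1*, which is also on the trophoblast list, were higher than in POU5F1 cells (median log2 fold change 3.71). The amnion list summed to 1840 and 1804 CPM in GABRP+TAC3+ cells and 356 and 263 CPM in POU5F1 cells. Against POU5F1 cells 5 of 8 surface ectoderm markers (62.5%) were higher and 1 lower, beside the 28.0% and 26.6% of all genes. The higher ones were *KRT19*, *PERP*, *ITGA6* and, also on the amnion list, *TFAP2A* and *TFAP2B*. *DSC3* was lower, *KRT15* and *GRHL3* were not called, and *KRT5* and *KRT14* did not enter the test. Interferon response genes and mesenchyme markers each gave 4 of 11 higher (36.4%) and 0 lower, the first not far from the share of all genes. Hypoblast markers gave 3 of 11 higher (27.3%) and 1 lower. Of 9 neural and placode markers 2 were higher and 3 lower. The collagen gene *COL1A1* held 41.7 and 25.7 CPM in GABRP+TAC3+ cells, 14.4 and 9.81 CPM in GABRP+TAC3- cells and 8.67 and 8.22 CPM in POU5F1 cells, beside 40.9 and 25.2 CPM in empty droplets. It was higher than in GABRP+TAC3- cells as well (log2 fold change 1.56, SE 0.27, edgeR adjusted p = 0.00182). In that comparison 4 mesenchyme markers were higher and 0 lower, beside 5.01% and 3.35% of all genes, with *VIM* in place of *DCN* among the 4. The summed mesenchyme list was 421 and 348 CPM in GABRP+TAC3+ cells and 228 and 191 CPM in POU5F1 cells. Since trophoblast, amnion and surface ectoderm markers were all higher than in POU5F1 cells beyond the share of all genes, the classes are called by their gates. Markers of adrenal and gonadal steroid-producing cells summed to 19.2 and 15.9 CPM in GABRP+TAC3+ cells and 19.4 and 13.3 CPM in POU5F1 cells. Of the 13 in the files, 1 of 6 tested was higher (*SOX9*, 14.9 and 13.6 CPM), and *MC2R*, *CYP21A2* and *FOXL2* were at 0 in both classes. The part of these marker groups in the *CYP17A1* levels was not tested.

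In bulk pESCs the genes split into 3 levels, given in FPKM, fragments per kilobase of transcript and 1000000 fragments, for IVFP25, PA_4P7 and PAP25. *FDX1* (25.6, 17.6 and 26.2) and *FDXR* (17.3, 14.0 and 15.3) were expressed in all 3 libraries, with means of 23.1 ± 4.79 and 15.5 ± 1.68 FPKM (SD, n = 3 libraries). Their percentiles among all genes above 0, taken in each library and averaged over the 3, were 83.6 and 77.3. *CYP17A1* was low (1.66, 1.27 and 0.656 FPKM, mean 1.19 ± 0.506, SD, n = 3, averaged percentile 38.5), with IVFP25 more than 2 times PAP25. *STAR* (0.0937, 0.109 and 0.0916 FPKM), *NR5A2* (0.0635, 0.215 and 0.0480 FPKM), *NR5A1* (0.159, 0.0814 and 0.287 FPKM) and *CYP19A3* (0.0746, 0.0243 and 0.0487 FPKM) were near 0. *CYP11A1*, *CYP19A1* and *CYP19A2* were listed at 0 in all 3 libraries, and *HSD3B1* in 2 of the 3, at 0.0569 FPKM in PA_4P7. In bulk RNA, fewer cells with a transcript and less of it per cell cannot be told apart, and the depth behind these values is unknown.

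*GABRP* and *TAC3* themselves were not low in bulk pESCs, at 48.2, 51.9 and 21.3 FPKM and at 64.3, 14.6 and 46.2 FPKM, beside 639, 506 and 432 FPKM of *POU5F1*. *TP63* was at 0.234, 0.0760 and 0.173 FPKM and *ISG15* at 5.11, 3.92 and 3.57 FPKM. The 3 pESC libraries showed *GABRP* above 20 FPKM with *CYP17A1* below 2 FPKM. POU5F1 cells of the blastoids held 37.4 and 41.3 CPM of *GABRP* and 36.5 and 21.0 CPM of *CYP17A1*. Whether the *GABRP* level of pESCs matches that of the GABRP classes of blastoid cells cannot be told. FPKM and UMI counts come from different assays and separate normalizations, so no fold was computed between them.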

How the data were processed

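Single cells were profiled by 10x Genomics droplets in 2 blastoid libraries and bulk RNA in 3 pESC libraries. The authors counted UMIs with Cell Ranger 7.1.0 on susScr11 and deposited raw counts for every barcode. For bulk RNA the authors trimmed reads with Trim Galore 0.6.4, mapped them with HISAT2 2.2.1 and computed FPKM per transcript with StringTie 2.2.1. The deposited FPKM were summed here per gene symbol, with no test in this single group. Whether intron reads were counted is not given in the sources used here.

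UMI counts were summed per library and class. All 8 classes were fitted together with edgeR 4.0.16 (R 4.3.3, TMM, filterByExpr, quasi-likelihood test, two-sided), with Benjamini-Hochberg adjustment over 17971 genes and a threshold of 0.05. The 4 comparisons of GABRP+TAC3+ cells were planned, and that of GABRP+TAC3- with POU5F1 cells was added after values were seen. On counts drawn with known folds for GABRP+TAC3+ against POU5F1 cells, 52 of 67 genes changed 1.5-fold, 66 of 67 changed 2-fold and 66 of 66 changed 4-fold were recovered among 17450, and 9 of 17250 others were called. The changed genes were drawn above a minimum level that *STAR*, *CYP19A1* and *NR5A2* do not reach. All genes had the same spread (dispersion 0.0058), and no library effect was drawn. The rates therefore do not cover these members, nor the wider spread of *CYP11A1* between libraries. Each library gives a sum to every class, so the library pairs the sums. Deviations of same-library sums from their class means correlated at 0.0176 to 0.365 over 28 pairs of classes (median 0.112).

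Named genes were the 7 members, their copies and partners, the gates, from each pathway list the 4 genes or fewer with the largest change among those called against POU5F1 cells, and the 10 genes most like *CYP17A1* with a mean of at least 10 CPM. *SRD5A1*, *SULT2B1* and the markers were named after their values were seen. Members, gates and lists were chosen with earlier results of these data known. CPM are over all UMIs of a class, so folds of CPM differ from the TMM-scaled folds. Against POU5F1 cells the *CYP17A1* fold was 20.25 by mean CPM and 24.4 by edgeR. That of *FDX1* was 0.9435 and 1.14, on different sides of no change. Thinning drew 9805 UMIs per cell. Cells with high mitochondrial shares (180 and 203) and the highest Scrublet scores in scanpy 1.11.5 (434 and 535 cells, since its own threshold marked 1 and 0) were left out only in alternatives. Upstream sequence came from the RefSeq genome of the same build (samtools 1.23.1, bedtools 2.31.1). Alternatives were DESeq2 1.42.0, no TMM, no count filter, other gates, overlapping gates, barcodes from 1000 UMIs, the library as a block and each library alone.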

Additional observations from a re-analysis of the deposited data

How the results depend on the processing

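The directions and calls of *CYP17A1*, *FDXR* and *CYP11A1* against POU5F1, TP63 and ISG15 cells held under all 10 alternatives with a test. The count of genes called in GABRP+TAC3+ against GABRP+TAC3- cells, 1502, was 2316 with the replicate block, 4424 with gates at 1 times the empty droplets and 977 with gates at 4 times, the cause of which was not tested. With the lower gates *CYP17A1* (log2 fold change 0.93, edgeR adjusted p = 4.1e-05) and *FDXR* (0.71, adjusted p = 5.8e-04) were called there too. The other counts of calls, 9821 against POU5F1, 6522 against TP63 and 6511 against ISG15 cells, stayed within 1.5 times (10478, 7492 and 7215 with the replicate block). The block changed no other member call than those of *FDXR* and *FDX1* given above.

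Without TMM scaling the median of all genes moved to -0.27 against POU5F1, -0.24 against TP63 and -0.20 against ISG15 cells, and the share of calls that were higher fell from 51.3% to 32.4%, from 53.2% to 27.2%, from 52.9% to 30.3% and, against GABRP+TAC3- cells, from 59.9% to 39.5%. The sign turned for *FDX1* against POU5F1 cells (-0.08) and *CYP19A1* against TP63 cells (-0.03, and -0.25 with overlapping gates), and *STAR* was called lower than in ISG15 cells (-0.78, adjusted p = 0.033). *STAR* also turned to 0.03 against POU5F1 and 0.02 against TP63 cells with doublets removed, to 0.02 against TP63 and 0.02 against GABRP+TAC3- cells with the mitochondrial filter, and *FDX1* to 0.07 against GABRP+TAC3- cells with gates at 1 times the empty droplets. No value that turned passed the threshold.

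Each library alone has no residual spread and so gives values without a test. *CYP17A1* over POU5F1 cells was 4.29 in library 1 and 5.02 in library 2, *FDXR* 1.63 in both, *CYP11A1* 1.25 and 3.19, and *NR5A2* 1.12 and 0.95. The highest transcript alone put *FDXR* at 13.5 FPKM in pESCs instead of 15.5. Class levels in CPM moved by more than the spread between libraries in 14 of 35 cases with gates at 1 times and 17 with gates at 4 times the empty droplets. Alternatives chosen after seeing the levels moved 8 (overlapping gates), 4 (doublets removed, with *CYP17A1* at 645 and 656 CPM in GABRP+TAC3+ cells), 2 (barcodes from 1000 UMIs) and 1 (mitochondrial filter), none by over 1.5 times. Those that moved that far were, with gates at 4 times, *CYP17A1* in ISG15 cells (91.0 CPM), *CYP11A1* in POU5F1 cells (2.45 CPM) and *CYP19A1* in GABRP+TAC3+ (0.508 CPM) and POU5F1 cells (0.0960 CPM), and with gates at 1 times *CYP19A1* in TP63 cells (0.463 CPM). The members called higher than in POU5F1 cells were 3 with overlapping gates and 4 with gates at 4 times or without TMM scaling. Depth limits *STAR*, *CYP19A1* and *NR5A2*, with at most 92 UMIs in any gated class, and the 2 libraries limit every test.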

Other observations

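Barcodes with 1000 UMIs or more that fell below the cell minimum, 3108 in library 1 and 3661 in library 2, entered no comparison other than the alternative that takes barcodes from 1000 UMIs. They held 125 and 112 CPM of *CYP17A1*, lower than the empty droplets and than all cells together (159 and 124 CPM). *FDXR* was at 44.4 and 43.8 CPM there, above the 37.8 and 40.9 CPM of all cells and below empty droplets. *CYP11A1* was at 4.00 and 10.9 CPM, *NR5A2* at 2.08 and 1.09 CPM and *CYP19A1* at 0.500 and 0.388 CPM.

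GABRP+TAC3+ cells made up 3.83% and 3.06% of all cells and held 13.1% and 12.4% of all *CYP17A1* UMIs in cells. GABRP+TAC3- cells made up 6.43% and 5.79% and held 19.5% and 19.4%. Cells with several gates held another 39.1% and 37.3%. The ungated cells, the most numerous class, made up 46.2% and 50.8% of all cells and held 12.7% and 15.3% of *CYP17A1* UMIs. Their shares of *STAR* UMIs, 46.6% and 53.4%, were close to their shares of cells.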
